A study of Mus musculus with 16 samples.

Results

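The 9 genes described here carry out antigen presentation by MHC class II, and they were taken by name from the 56980 genes of an IFNγ experiment and the 55414 genes of a separate untreated experiment. They are Ciita, Cd74, H2-Aa, H2-Ab1, H2-Eb1, H2-DMa, H2-DMb1, H2-Oa and Ctss, and all 9 were listed in both count tables. The rule took them by name and used no measured value, though they were chosen with earlier results of these data known. The comparisons ask whether interferon gamma (IFNγ) switches these genes on in a pancreatic tumor cell line, and whether the loss of Sin3B changes how strongly it does so.

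MHC class II molecules are pairs of an alpha and a beta chain that carry peptides to the surface for CD4+ T cells. Professional antigen-presenting cells make them all the time, whereas most epithelial cells make them only when IFNγ induces Ciita, the class II transactivator. CIITA binds no DNA itself. It is recruited by a complex of the RFX proteins, NF-Y and CREB1 that sits on the X and Y boxes shared by class II promoters. Cd74 encodes the invariant chain that escorts new class II pairs to endosomes, cathepsin S (Ctss) cuts that chain, H2-DM (H2-DMa and H2-DMb1) loads the peptide, and H2-O (with H2-Oa as its alpha chain) restrains H2-DM. SIN3B is a scaffold protein of histone deacetylase complexes that repress transcription.

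KPC1199 cells are a mouse pancreatic ductal adenocarcinoma (PDAC) line from a genetically engineered tumor that carried Pdx-cre and Trp53R172H among its alleles, so every group shares them. Both genotypes were made with lentiviral CRISPR-Cas9 and puromycin selection: sgCtrL cells carried a control guide (genotype WT in the labels) and Sin3Bsg1 cells carried 1 guide against Sin3B (Sin3B Knockout). In the IFNγ experiment both genotypes were cultured without IFNγ or with IFNγ at 10 ng/ml for 24 h, with 3 libraries in each of the 4 groups. The untreated experiment held 2 libraries of each genotype without IFNγ. With 1 Sin3B guide profiled, what the guide did through Sin3B and what it did elsewhere cannot be told apart, and the labels do not say whether replicates were separate cultures, so the tests measure the spread between these libraries.

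The libraries held 18128055 to 27056903 counts in the IFNγ experiment and 29499733 to 32093704 in the untreated one. Sin3b itself stood at 88.4 to 95.5 CPM (counts scaled to a common library size by TMM) in the 3 sgCtrL libraries without IFNγ and at 80.3 to 84.2 with it. In the Sin3Bsg1 libraries it stood at 38.6 to 39.4 CPM without IFNγ and 33.6 to 37.7 with it, below every sgCtrL library. Sin3b RNA thus set the genotypes apart but remained present, and RNA libraries do not measure the loss of the protein. The sgCtrL + IFNγ replicate 1 stood apart from its group. Over genes, its chi-square against replicates 2 and 3 averaged 23.2 and 19.5, while that between replicates 2 and 3 averaged 4.12 and counting noise alone gives about 1. Of 14 markers of antigen-presenting and other immune cells, among them Ptprc, Itgax and Adgre1, 6 were at 0 in every IFNγ-experiment library and 11 never exceeded 3 counts. Their summed level was 0.162 to 0.855 CPM in sgCtrL cells, 0.0450 to 0.566 in sgCtrL + IFNγ cells, 0.430 to 0.609 in Sin3Bsg1 cells and 0.125 to 0.605 in Sin3Bsg1 + IFNγ cells, ranges that overlap. The 8 ductal markers, keratins and Epcam among them, summed to between 3251 and 4617 CPM, with 4383 to 4617 in Sin3Bsg1 + IFNγ cells and 3323 to 3872 in sgCtrL + IFNγ cells. The 6 fibroblast markers summed to 184 to 186 CPM in sgCtrL + IFNγ cells and 160 to 171 in Sin3Bsg1 + IFNγ cells, and the 3 endothelial markers stayed under 0.522 CPM in sum. Of the fibroblast markers only Pdgfra and Pdgfrb passed the low-count filter, and they went opposite ways between genotypes. With IFNγ Pdgfra was lower in Sin3Bsg1 cells by -0.21 ± 0.04 and Pdgfrb higher by 0.27 ± 0.06 (log2, SE, edgeR, adjusted p = 0.0021 and 0.0059).

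Without IFNγ, the class II program was close to silent in both genotypes. Ciita gave 4, 0 and 0 counts in the sgCtrL libraries and 0, 0 and 1 in the Sin3Bsg1 libraries, and it had 0 counts in all 4 libraries of the untreated experiment. H2-Aa and H2-Eb1 had 0 counts in all 6 libraries without IFNγ. H2-DMa was the exception, at 1.52 ± 0.302 CPM in sgCtrL cells and 1.96 ± 0.249 CPM in Sin3Bsg1 cells (SD, n = 3 each).

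IFNγ switched Ciita on in both genotypes, to a higher level in Sin3Bsg1 than in sgCtrL cells. The sgCtrL + IFNγ libraries held 101, 162 and 134 Ciita counts (5.72 ± 0.611 CPM, SD, n = 3) and the Sin3Bsg1 + IFNγ libraries 316, 340 and 258 (12.7 ± 1.40 CPM). The lowest Sin3Bsg1 + IFNγ library, at 11.1 CPM, lay above the highest sgCtrL + IFNγ library, at 6.11 CPM, a separation in this direction that 15.4% of all tested genes showed. A higher level in a culture can come from more cells that express a gene or from more RNA per cell, and the libraries cannot tell these apart. The ratio between genotypes was 2.20 (exact 95% interval of the summed counts 1.95 to 2.48). In edgeR's quasi-likelihood fit the log2 fold change was 1.14 ± 0.20 (SE), with an adjusted p of 8.9e-04, and without the sgCtrL + IFNγ library that stood apart it was 1.07 ± 0.20 with an adjusted p of 7.6e-04. Intervals of summed counts cover counting error only.

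The induction of Ciita over cells without IFNγ had a ratio of 88.3 in sgCtrL cells, with an interval of 34.2 to 326 (edgeR, adjusted p = 1.3e-08). All 4 counts in the denominator came from sgCtrL replicate 1. Without that library the induction was at least 66.4-fold, the lower limit of the exact interval against 0 counts. Without sgCtrL replicate 2 the ratio was 53.7 (20.8 to 198). In Sin3Bsg1 cells 914 counts stood against 1, a ratio of 921 with an interval of 165 to 36397 (edgeR, adjusted p = 1.8e-10). Without Sin3Bsg1 replicate 3, which held that count, it was at least 169-fold, and without replicate 1 the ratio was 587 (105 to 23213).

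**Figure D1:**
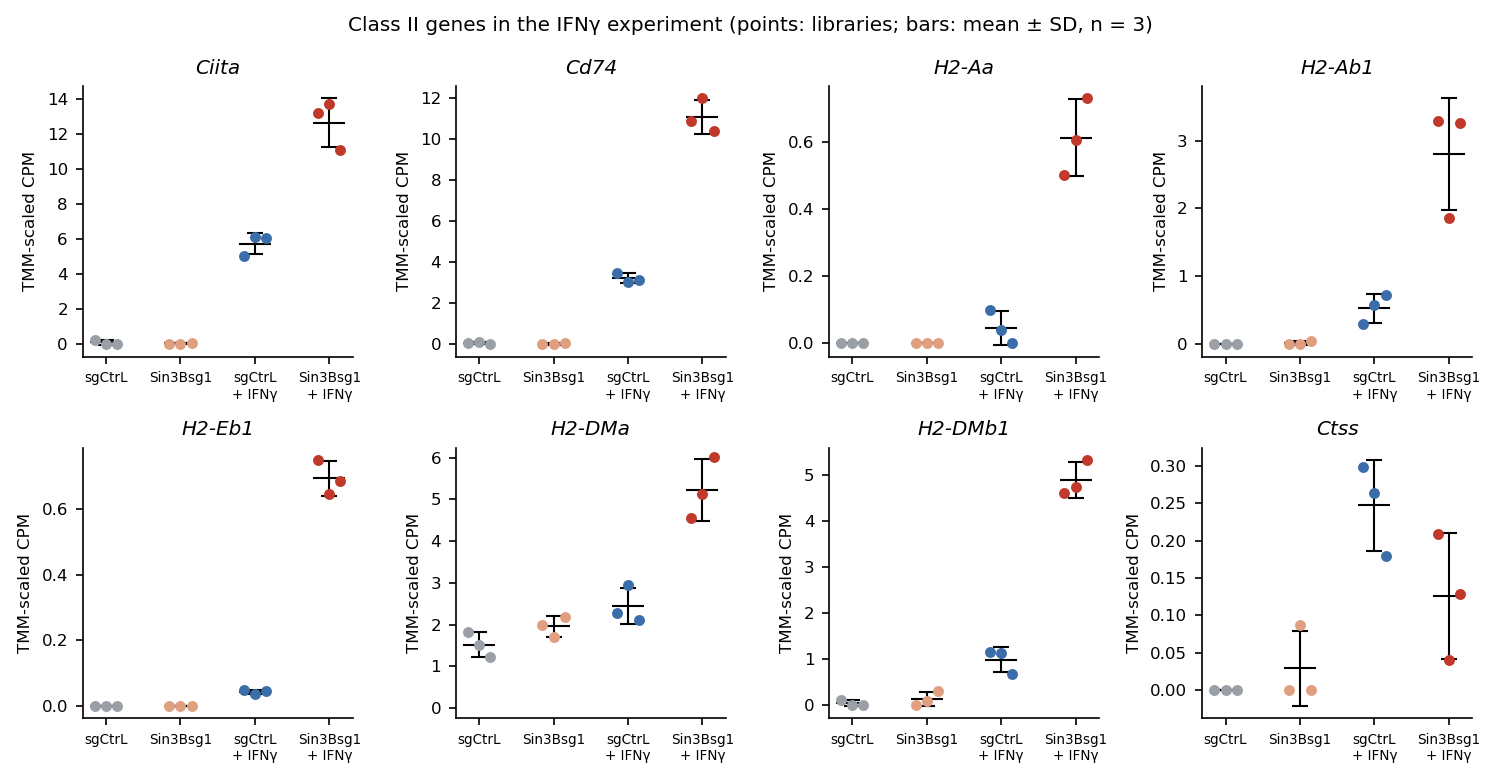
TMM-scaled CPM (y axis, linear and different in each panel) of 8 of the 9 genes in the 12 libraries of the IFNγ experiment, by genotype and treatment; points are libraries and bars the mean ± SD of 3. H2-Oa, at 0 in every library, is left out. In the Ciita, Cd74, H2-Ab1, H2-Aa, H2-Eb1, H2-DMa and H2-DMb1 panels the 3 Sin3Bsg1 + IFNγ points lie above all others, and in the Ctss panel they do not. Of all tested genes, 15.4% lay above the sgCtrL + IFNγ points in this way, and the share above all other points was not computed. H2-Aa and H2-Eb1 passed the low-count filter only through the Sin3Bsg1 + IFNγ libraries.

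The invariant chain gene Cd74 was also switched on by IFNγ, with a genotype ratio of 3.45 beside 2.20 for Ciita. It gave 1, 3 and 0 counts in sgCtrL cells and 0, 0 and 1 in Sin3Bsg1 cells without IFNγ. With IFNγ it gave 70, 81 and 70 counts in sgCtrL cells (3.23 ± 0.221 CPM, SD, n = 3) and 260, 297 and 242 in Sin3Bsg1 cells (11.1 ± 0.821 CPM). The groups with IFNγ did not overlap. The interval of the genotype ratio was 2.97 to 4.03, and the fitted log2 fold change was 1.78 ± 0.19 (SE; edgeR, adjusted p = 7.2e-06), or 1.85 ± 0.20 without the library that stood apart. Over cells without IFNγ the ratio was 49.2 (18.9 to 182) in sgCtrL cells and 120 (21.3 to 4748) without sgCtrL replicate 2, which held 3 of the 4 counts. It was 805 (144 to 31823) in Sin3Bsg1 cells, at least 148-fold without replicate 3 and 513 (91.8 to 20295) without replicate 1. Both inductions passed the test (edgeR, adjusted p = 2.0e-08 and 3.3e-11).

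Among the classical class II chains, H2-Aa and H2-Eb1 had genotype ratios that rest on 3 counts each in sgCtrL + IFNγ cells, and H2-Ab1 had more counts. Promoter windows of these genes are shown because class II genes share the sites through which CIITA works. RefSeq windows on GRCm38.p6, from 250 bases before to 50 after the start, were matched for H2-Aa, H2-Eb1, H2-DMa, H2-DMb1, H2-Oa and Ctss. No window was available for Ciita or H2-Ab1, and Cd74 was left out of the matching by choice. The 120 bases before the start are given 5′ to 3′ on the gene's strand. Capitals mark GNAAC, the core of an X box, and ATTGG, the core of a Y box, where the second starts 30 to 33 bases after the first.
H2-Aa, chr17:34287824-34287943, minus strand: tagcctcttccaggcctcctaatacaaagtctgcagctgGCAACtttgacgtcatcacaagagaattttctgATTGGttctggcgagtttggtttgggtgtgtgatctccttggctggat
H2-Eb1, chr17:34305747-34305866, plus strand: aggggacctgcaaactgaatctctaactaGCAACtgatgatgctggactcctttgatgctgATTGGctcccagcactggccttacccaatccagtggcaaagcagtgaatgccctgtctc
H2-DMb1, chr17:34153071-34153190, plus strand: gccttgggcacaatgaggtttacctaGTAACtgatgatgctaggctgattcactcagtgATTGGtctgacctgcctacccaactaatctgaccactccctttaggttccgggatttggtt
H2-Oa, chr17:34092259-34092378, plus strand: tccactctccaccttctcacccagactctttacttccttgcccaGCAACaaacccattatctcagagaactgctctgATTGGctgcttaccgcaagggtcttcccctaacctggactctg

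The spaced pair started 81 bases before the start in H2-Aa, 91 in H2-Eb1, 94 in H2-DMb1 and 76 in H2-Oa. Of all 32851 windows, 0.712% held the pair on either strand, while ATTGG alone was in 37.4%. The spacing was set after these windows were seen, so the share is a description. Neither of the 2 H2-DMa windows nor the Ctss window held the pair. H2-Oa, which held it, had no counts in any library. Windows of other class II chains were also matched: those of H2-Ob and H2-Eb2 held the pair and that of H2-DMb2 did not. None of these chains had more than 1 count in any library.

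H2-Ab1, the beta chain of the I-A molecule, was the best counted of the classical chains. The sgCtrL + IFNγ libraries held 6, 15 and 16 counts (0.528 ± 0.214 CPM, SD, n = 3) and the Sin3Bsg1 + IFNγ libraries 79, 46 and 76 (2.81 ± 0.822 CPM). Every Sin3Bsg1 + IFNγ library was above every sgCtrL + IFNγ library. The genotype ratio was 5.19 (3.64 to 7.58) and the log2 fold change 2.38 ± 0.41 (SE; edgeR, adjusted p = 0.0011), or 2.14 ± 0.42 without the library that stood apart. The sgCtrL cells without IFNγ had no H2-Ab1 counts, so the induction there was at least 8.49-fold, or at least 5.16-fold without sgCtrL replicate 2 (edgeR on all libraries, adjusted p = 4.8e-04). In Sin3Bsg1 cells the ratio was 202 (35.9 to 8035, edgeR, adjusted p = 2.2e-06), at least 36.9-fold without replicate 3 and 129 (22.9 to 5124) without replicate 1.

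H2-Aa, the alpha chain of I-A, gave 2, 1 and 0 counts in the sgCtrL + IFNγ libraries and 12, 15 and 17 in the Sin3Bsg1 + IFNγ libraries. The groups did not overlap, and the genotype ratio was 14.0 with an interval of 4.49 to 70.6 (edgeR, adjusted p = 0.0051). H2-Aa passed the low-count filter only through the Sin3Bsg1 + IFNγ libraries, which nearly fixed the outcome of that test. Without the sgCtrL + IFNγ replicate 1, which held 2 of the 3 counts, the ratio was 29.7 (5.07 to 1201).

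H2-Eb1, the beta chain of the I-E molecule, gave 1, 1 and 1 counts in the sgCtrL + IFNγ libraries and 18, 16 and 16 in the Sin3Bsg1 + IFNγ libraries, which did not overlap. Its genotype ratio was 15.9 with an interval of 5.14 to 79.8 (edgeR, adjusted p = 0.0011). The 3 counts of each of H2-Aa and H2-Eb1 in sgCtrL + IFNγ cells allow no fold over cells without IFNγ, and neither gene passed that test (edgeR, adjusted p = 0.19 and 0.13). In Sin3Bsg1 cells IFNγ raised H2-Aa at least 11.5-fold and H2-Eb1 at least 13.2-fold (edgeR, adjusted p = 4.8e-04 and 9.3e-05). Without Sin3Bsg1 replicate 1 these bounds were 7.34 and 8.39. Both genes passed the low-count filter only through the Sin3Bsg1 + IFNγ libraries. Being tested thus nearly fixed the calls for IFNγ in Sin3Bsg1 cells and between genotypes, which carry no weight of their own. In the GENCODE vM39 annotation of GRCm39 the 2 genes overlap by 2563 bases on opposite strands, and the lncRNA Gm20513 overlaps H2-Eb1 by 15838 bases on the opposite strand. The strand setting of the counting was not given in the sources used here.

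Of the peptide loader H2-DM, the alpha chain gene had counts in every library before IFNγ, and the beta chain gene had at most 7 in a library. H2-DMb1 gave 2, 0 and 0 counts in sgCtrL cells and 0, 2 and 7 in Sin3Bsg1 cells without IFNγ. With IFNγ it gave 23, 30 and 15 counts in sgCtrL cells (0.983 ± 0.267 CPM, SD, n = 3) and 110, 117 and 124 in Sin3Bsg1 cells (4.88 ± 0.389 CPM), with no overlap. The genotype ratio was 4.93 (3.79 to 6.49) and the log2 fold change 2.30 ± 0.39 (SE; edgeR, adjusted p = 5.8e-04), or 2.42 ± 0.41 without the library that stood apart. IFNγ raised it 30.3 times in sgCtrL cells (8.06 to 255), 18.4 times without sgCtrL replicate 2 and at least 11.1-fold without replicate 1, which held both counts. In Sin3Bsg1 cells the ratio was 39.3 (20.5 to 86.6), 25.0 (13.0 to 55.2) without replicate 1 and 120 (33 to 995) without replicate 3, which held 7 of the 9 counts (edgeR on all libraries, adjusted p = 3.4e-04 in sgCtrL and 1.1e-06 in Sin3Bsg1 cells).

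H2-DMa was at 1.83, 1.502 and 1.23 CPM in sgCtrL cells and rose to 2.29, 2.94 and 2.12 CPM with IFNγ. In Sin3Bsg1 cells it rose from 1.98, 1.70 and 2.19 CPM to 4.55, 5.12 and 6.01 CPM. The groups with and without IFNγ did not overlap in either genotype, and with IFNγ the genotypes did not overlap. Of all tested genes, 20.8% had ranges that were higher with IFNγ without overlap in sgCtrL cells and 24.3% in Sin3Bsg1 cells. The log2 fold change with IFNγ was 0.69 ± 0.22 (SE) in sgCtrL cells (edgeR, adjusted p = 0.027) and 1.42 ± 0.20 in Sin3Bsg1 cells (adjusted p = 5.0e-05). The sgCtrL call was lost without sgCtrL replicate 2 (0.68, adjusted p = 0.077), without sgCtrL replicate 3 (0.57, 0.11) and without sgCtrL + IFNγ replicate 2 (0.53, 0.12). With IFNγ the genotypes differed by 1.08 ± 0.20 (edgeR, adjusted p = 0.0011), or 1.05 ± 0.22 without the library that stood apart. Without IFNγ the difference was 0.36 ± 0.23 (adjusted p = 0.32), and in the untreated experiment, with 31 and 29 counts in sgCtrL and 38 and 34 in Sin3Bsg1 libraries, it was 0.17 ± 0.34 (adjusted p = 0.76).

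H2-DMa was the only one of the 9 genes with counts in every library. For the others the difference between the 2 IFNγ responses rested on at most 9 counts in a group without IFNγ. For H2-DMa that interaction was 0.72 ± 0.30 on the log2 scale (edgeR, adjusted p = 0.89) and did not pass the test. Brd2 overlaps H2-DMa on the opposite strand by 3231 bases and was at 428 ± 1.81 CPM in sgCtrL + IFNγ cells and 475 ± 13.8 CPM in Sin3Bsg1 + IFNγ cells (SD, n = 3). The authors' estimated counts of H2-DMa were not whole numbers in any of the 12 libraries, whereas those of the other 8 genes were whole. The lncRNA Gm50336 overlaps H2-DMa on the same strand by 9074 bases, and 3 other annotated genes overlap it by 476 to 4022 bases. The part of Brd2 or lncRNA reads in the H2-DMa values was not tested.

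Cathepsin S gave few counts and H2-O none. Ctss gave 0 counts in all sgCtrL libraries without IFNγ and 6, 7 and 4 with it. In Sin3Bsg1 cells it gave 0, 2 and 0 counts without IFNγ and 5, 1 and 3 with it, so the genotypes overlapped with IFNγ. Its genotype ratio with IFNγ was 0.506 with an interval of 0.199 to 1.20. That interval was 0.0825 to 1.03 around a ratio of 0.337 without Sin3Bsg1 + IFNγ replicate 1. Ctss did not pass the low-count filter. Fitted without that filter, it passed for IFNγ in sgCtrL cells (edgeR, adjusted p = 0.012). The induction there was at least 3.67-fold, or at least 2.23-fold without sgCtrL replicate 2. It did not pass for IFNγ in Sin3Bsg1 cells (adjusted p = 0.43) or between genotypes with IFNγ (adjusted p = 0.69). H2-Oa had 0 counts in all 16 libraries, which allows up to 0.113 to 0.162 CPM per library of the IFNγ experiment and up to 0.0933 to 0.102 in the untreated one.

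Of the 9 genes, 7 passed the low-count filter, and all of these 7 were higher in Sin3Bsg1 than in sgCtrL cells with IFNγ. Over all 14913 genes tested, 8.62% were called higher in that comparison, and 16.5% were called in either direction. The filter asks for about 0.434 CPM in at least 3 libraries. H2-Aa and H2-Eb1 reached it only in the 3 Sin3Bsg1 + IFNγ libraries and H2-Ab1 only in those and 2 of sgCtrL + IFNγ, so that they could hardly have been tested without being higher there. Ciita, Cd74, H2-DMb1 and H2-DMa reached it in every library of both IFNγ-treated groups. Each of the 7 calls held in all 12 fits that left out 1 library. DESeq2 called 5 of the 7 and gave H2-Aa and H2-Eb1 no adjusted p. IFNγ raised 5 of the 7 in sgCtrL cells, where 15.7% of all genes were called higher, and 7 of 7 in Sin3Bsg1 cells, where 16.1% were. Apart from H2-DMa, these genes reached the filter in no library without IFNγ, so that being tested nearly fixed a higher level with IFNγ, and the counts carry no weight beside those shares. In a fit of the 6 sgCtrL libraries alone, 3 were called (Ciita, Cd74 and H2-DMb1), H2-DMa was not (0.69, adjusted p = 0.081) and H2-Ab1 did not pass the filter.

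Without IFNγ only H2-DMa had enough counts to compare the genotypes, and it was not called by edgeR, which called 17.2% of all genes, or by DESeq2. The other 6 genes in the fit had 0 to 9 counts in a group and were not called, also at an unadjusted p under 0.05, which says nothing about whether the genotypes differ there. For the interaction, which edgeR called for 0.114% of all genes, none of the 7 was called, 2 had an unadjusted p under 0.05, and DESeq2 called 0 while giving no adjusted p to 6 of the 8 genes with counts. In the untreated experiment H2-DMa alone was tested and was not called (31.2% of 14589 genes were), with an unadjusted p above 0.05 and no DESeq2 call. There Cd74 gave 0 and 3 counts in sgCtrL and 3 and 1 in Sin3Bsg1 libraries, and H2-DMb1 gave 3 and 6 against 2 and 3.

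Scaled to transcript length, the class II genes stayed in the lower part of the expressed genes even with IFNγ. In Sin3Bsg1 + IFNγ cells the order by TPM, counts per length scaled to a common total, was Cd74 (16.4 ± 1.32, SD, n = 3), H2-DMa (9.81 ± 1.08), H2-DMb1 (7.22 ± 0.399), Ciita (6.23 ± 0.811), H2-Ab1 (4.83 ± 1.46), H2-Eb1 (1.24 ± 0.132), H2-Aa (1.13 ± 0.176) and Ctss (0.196 ± 0.136). Ciita and H2-Ab1 overlapped in range, as did H2-Eb1 and H2-Aa, and the other neighbours did not. In sgCtrL + IFNγ cells Cd74 (4.76 ± 0.363) and H2-DMa (4.58 ± 0.726) came first and overlapped. Ciita (2.80 ± 0.287), H2-DMb1 (1.45 ± 0.385), H2-Ab1 (0.905 ± 0.369) and Ctss (0.379 ± 0.0919) followed, and of these only H2-DMb1 and H2-Ab1 overlapped as neighbours. H2-Aa (0.0841 ± 0.0930) and H2-Eb1 (0.0784 ± 0.0115) were last. In TPM, 31.1% of the tested genes were below Cd74 in sgCtrL + IFNγ cells and 49.8% in Sin3Bsg1 + IFNγ cells. B2m, the light chain of MHC class I, was at 3793 ± 237 and 4022 ± 170 TPM in the same groups.

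**Figure D2:**
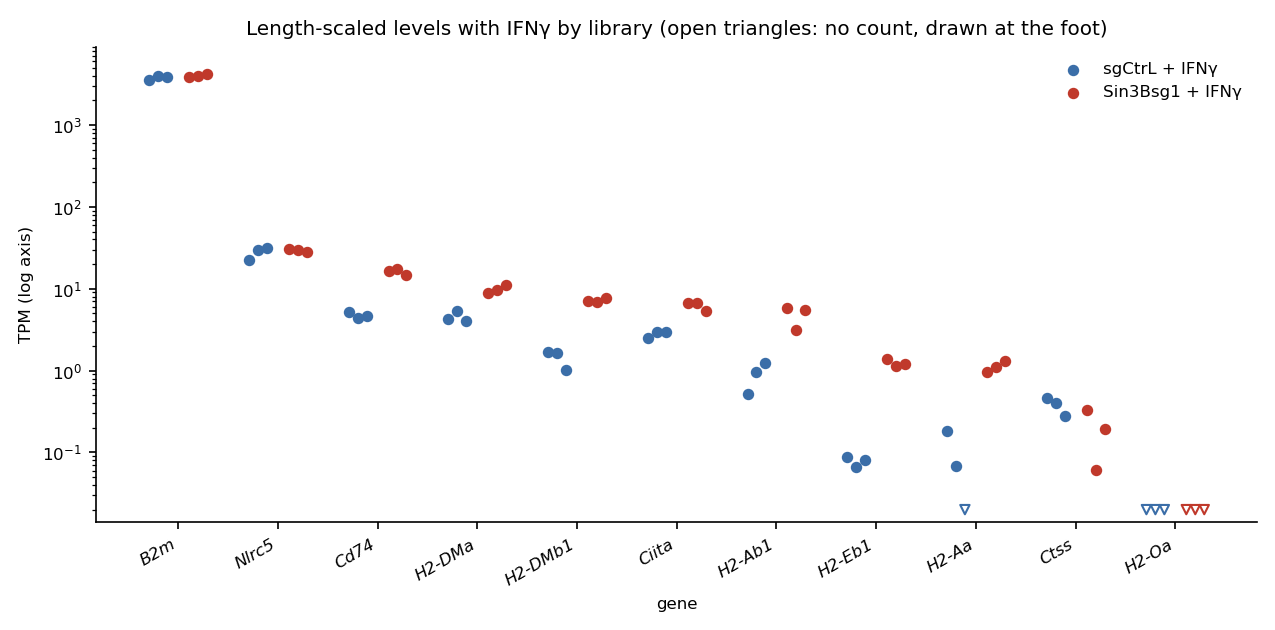
TPM on a log axis for the 9 class II genes, the class I transactivator Nlrc5 and the class I light chain B2m, in the 3 sgCtrL + IFNγ (blue) and 3 Sin3Bsg1 + IFNγ (red) libraries; each point is a library and open triangles at the foot are libraries without a count. B2m (3793 and 4022 TPM) and Nlrc5 (27.7 and 29.4 TPM) lie together in both genotypes, while Cd74 is at 4.76 against 16.4 TPM.

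Some of the genes on the route from IFNγ to Ciita responded in both genotypes. Of 10 such genes (receptor chains, kinases, factors that bind the Ciita promoter and 2 repressors), 5 rose and 1 fell with IFNγ in each genotype. Of all genes, 15.7% rose and 14.5% fell in sgCtrL cells, and 16.1% and 12.3% in Sin3Bsg1 cells. Irf1, which binds the Ciita promoter, rose by 3.51 ± 0.04 on the log2 scale in sgCtrL and 3.56 ± 0.04 in Sin3Bsg1 cells (edgeR, adjusted p = 1.7e-18 and 1.3e-18). Socs1, a feedback inhibitor of the kinases, rose by 4.16 ± 0.11 and 4.12 ± 0.10. Prdm1, a repressor of Ciita, rose by 1.72 ± 0.12 and 1.66 ± 0.12.

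Between genotypes with IFNγ none of these 10 genes was called by edgeR (16.5% of all genes were), 2 had an unadjusted p under 0.05, and DESeq2 called 0. Their median log2 difference was 0.03, beside 0.004 over all genes. Irf1 differed by 0.06 ± 0.04 and Socs1 by 0.10 ± 0.08. Without IFNγ 1 of the 10 was called, Jak2, higher in Sin3Bsg1 cells by 0.29 ± 0.05 (edgeR, adjusted p = 3.1e-04). Of all genes, 17.2% were called there. In the untreated experiment 2 of the 10 were called higher and 1 lower, where 31.2% of all genes were called. Jak2 was again among the higher ones, by 0.23 ± 0.04 (edgeR, adjusted p = 2.0e-04).

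The 7 factors that hold the class II promoter complex (Rfx5, Rfxap, Rfxank, Nfya, Nfyb, Nfyc and Creb1) are shown next. Between genotypes with IFNγ edgeR called none of them (16.5% of all genes were called), 1 had an unadjusted p under 0.05, and DESeq2 called that one, Nfya, lower. Their median log2 difference was -0.02. Rfx5, the DNA-binding RFX subunit, rose with IFNγ by 0.64 ± 0.11 in sgCtrL and 0.84 ± 0.11 in Sin3Bsg1 cells (edgeR, adjusted p = 3.6e-04 and 2.0e-05), and Rfxank fell by 0.40 and 0.27. Nfyb was the other gene of the list that rose, by 0.32 and 0.28, a call lost in sgCtrL cells without sgCtrL replicate 2 (0.27) and in Sin3Bsg1 cells without either of its IFNγ-treated replicates 2 and 3 (0.22 and 0.23) or its replicates 1 and 2 without IFNγ (0.22 and 0.24). The genotype difference of Rfx5 with IFNγ was 0.02 ± 0.10, a sign that turned when single libraries were left out.

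**Figure D3:**
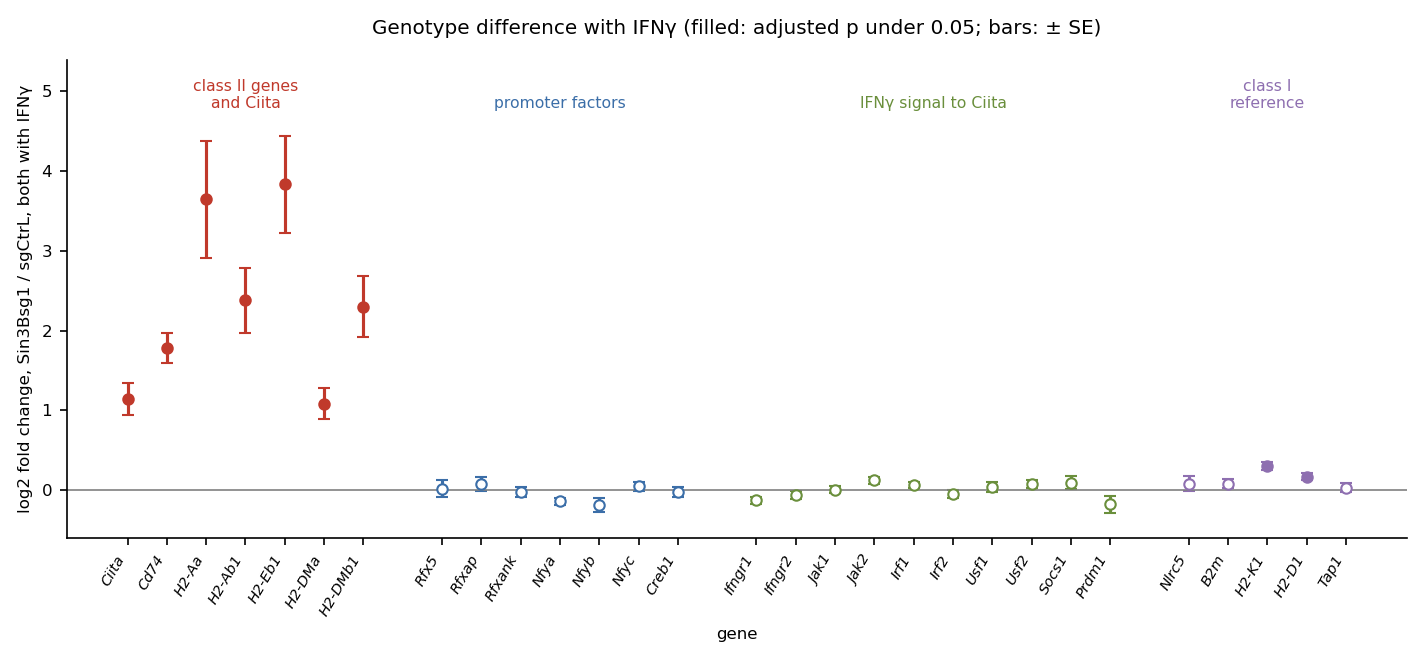
Log2 fold change of Sin3Bsg1 over sgCtrL cells, both with IFNγ (y axis), for the 7 class II genes tested, the 7 promoter factors, the 10 genes of the route from IFNγ to Ciita and 5 class I reference genes; bars are ± SE of the fit and filled points passed an adjusted p of 0.05. The class II genes lie between 1.08 and 3.83, and of the other genes drawn only H2-K1 and H2-D1 passed, at 0.30 and 0.17. H2-Aa and H2-Eb1 passed the low-count filter only through the Sin3Bsg1 + IFNγ libraries.

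Nlrc5, the class I counterpart of Ciita, served as a comparison within the same cells. It rose by 5.71 ± 0.15 in sgCtrL and 6.71 ± 0.16 in Sin3Bsg1 cells and ended at 101 ± 17.4 and 107 ± 1.32 CPM (SD, n = 3). Its genotype difference with IFNγ was 0.08 ± 0.09 (edgeR, adjusted p = 0.61), and -0.04 without the library that stood apart. Without IFNγ Nlrc5 was lower in Sin3Bsg1 cells, at 1.02 ± 0.183 against 1.95 ± 0.332 CPM, by -0.92 ± 0.28 on the log2 scale (edgeR, adjusted p = 0.035). That call was lost without sgCtrL replicate 1 or 3 or any 1 of the 6 Sin3Bsg1 libraries (-0.78 to -1.02, adjusted p = 0.053 to 0.13). Of 5 class I reference genes, 3 were called higher without IFNγ and Nlrc5 alone lower, where 17.2% of all genes were called. H2-K1 was higher by 0.93 ± 0.06, Tap1 by 0.83 ± 0.13 and H2-D1 by 0.48 ± 0.05 (edgeR, adjusted p = 6.3e-08, 4.0e-04 and 5.6e-06). Per Nlrc5 count, Ciita gave 0.0620, 0.0561 and 0.0534 counts in the sgCtrL + IFNγ libraries and 0.123, 0.127 and 0.105 in the Sin3Bsg1 + IFNγ libraries. Per Irf1 count, it gave 0.00582, 0.00695 and 0.00704 against 0.0147, 0.0152 and 0.0121. Neither pair of groups overlapped.

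For 5 class II genes the counts per Ciita count of the same library did not overlap between genotypes, in a design too small to pass a test. The share of all genes whose ratio to Ciita separated in this way was not computed, so the count has no background. H2-Aa and H2-Eb1 passed the low-count filter only through the Sin3Bsg1 + IFNγ libraries, which nearly fixed their direction. Cd74 gave 0.572 ± 0.106 counts per Ciita count in sgCtrL + IFNγ and 0.878 ± 0.0577 in Sin3Bsg1 + IFNγ cells (SD, n = 3). H2-Ab1 gave 0.0905 ± 0.0301 against 0.227 ± 0.0822, H2-DMb1 0.175 ± 0.0586 against 0.391 ± 0.0777, H2-Eb1 0.00785 ± 0.00189 against 0.0553 ± 0.00761, and H2-Aa 0.00866 ± 0.0101 against 0.0493 ± 0.0147. The Sin3Bsg1 + IFNγ values were the higher ones in all 5. H2-DMa gave 0.429 ± 0.0692 against 0.420 ± 0.107, and its groups overlapped. In all, 8 ratios were compared by a two-sided exact permutation test, counting those of Ciita to Nlrc5 and Irf1. With 3 libraries against 3 that test cannot go below 0.1, the value of 7 ratios (adjusted p = 0.11, Benjamini-Hochberg), and for H2-DMa it gave 0.9.

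**Figure D4:**
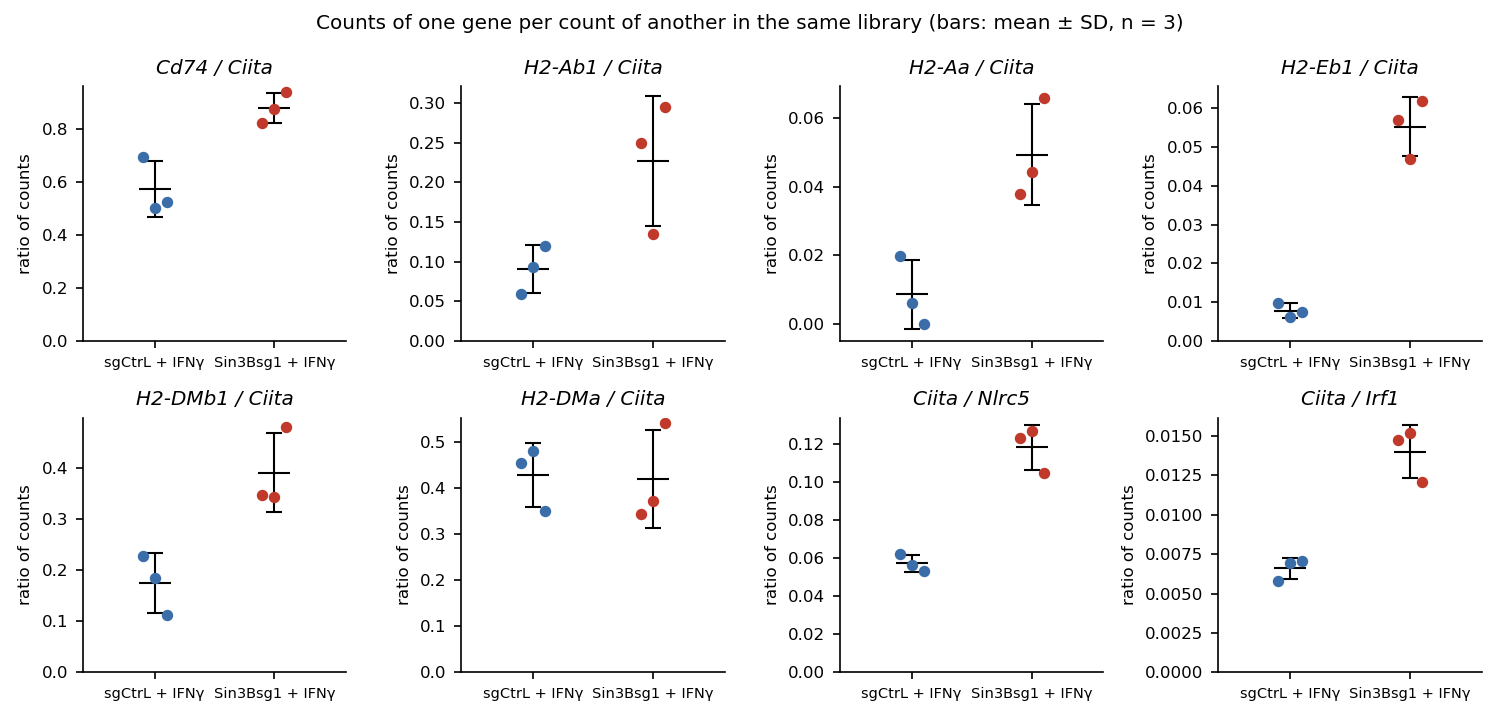
Counts of one gene per count of another in the same library (y axis, a ratio, linear), in the sgCtrL + IFNγ and Sin3Bsg1 + IFNγ libraries; points are libraries and bars the mean ± SD of 3. The Sin3Bsg1 points lie above the sgCtrL points in every panel except H2-DMa per Ciita, where the means are 0.420 and 0.429.

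The remaining class II chains gave almost no counts, and whether the line carries intact copies of these genes was not tested. H2-Ob, H2-DMb2, H2-Eb2 and H2-Ea had at most 1 count in any library and none was tested. H2-DMb2 closely resembles H2-DMb1. It had no counts in any library of the IFNγ experiment, and the authors' estimated counts of H2-DMb1 were whole in every library. Whether reads were divided between the 2 genes was not tested.

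Of 11 genes that supply peptides and turn class II over (lysosomal cathepsins, Ifi30, Lgmn, Sppl2a and others), 2 were called higher and 1 lower in Sin3Bsg1 cells with IFNγ, where 16.5% of all genes were called, with a median log2 difference of -0.04. Ctsh, a lysosomal cathepsin, was higher by 1.27 ± 0.09 with IFNγ (edgeR, adjusted p = 1.3e-07), by 1.22 ± 0.09 without it and by 0.97 ± 0.11 in the untreated experiment, and IFNγ lowered it in both genotypes, by -0.67 and -0.61. Lgmn, an asparaginyl endopeptidase, was lower by -0.31 ± 0.05 (adjusted p = 3.0e-04). Ctsb was higher by 0.18 ± 0.05 (adjusted p = 0.014), a call lost without sgCtrL + IFNγ replicate 2 (0.15, adjusted p = 0.054) or replicate 3 (0.15, 0.060). Sppl2a, which clears the last piece of the invariant chain, rose with IFNγ by 0.57 ± 0.05 and 0.54 ± 0.05. Its genotype difference was 0.08 ± 0.05 (adjusted p = 0.33), and 0.14 without the library that stood apart (adjusted p = 0.034).

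Costimulatory ligands for T cells were mostly absent. Of 7, Icam1, Icosl and Tnfsf9 passed the filter. Cd86 had 0 counts in every library, and Cd40 and Cd80 gave at most 3 and 7 counts in an IFNγ-treated library. Icam1, the adhesion ligand of LFA-1, rose with IFNγ from a range of 1.04 to 2.03 CPM to one of 7.13 to 8.55 CPM in sgCtrL cells, and from 4.07 to 4.25 CPM to 17.9 to 19.9 CPM in Sin3Bsg1 cells. It was higher in Sin3Bsg1 cells by 1.27 ± 0.13 with IFNγ, 1.51 ± 0.18 without it and 0.81 ± 0.18 in the untreated experiment (edgeR, adjusted p = 3.9e-06, 2.4e-05 and 0.0023). Icosl was lower with IFNγ by -0.67 ± 0.18 (adjusted p = 0.019), a call lost without sgCtrL + IFNγ replicate 2 (-0.59, adjusted p = 0.073) or Sin3Bsg1 + IFNγ replicate 2 (-0.59, 0.087).

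Dexi shares 29935 bases with Ciita on the opposite strand in the GENCODE vM39 annotation of GRCm39, where Ciita lies at chromosome 16, 10297923 to 10347694. Dexi rose by 0.96 ± 0.08 in sgCtrL and 0.97 ± 0.08 in Sin3Bsg1 cells with IFNγ (edgeR, adjusted p = 1.0e-07 and 7.4e-08). Between genotypes with IFNγ it differed by -0.12 ± 0.07 (adjusted p = 0.32). Reads of the 2 genes could not be told apart by strand from the sources used here, and their part in the Ciita values was not tested. On the same build, the 6 class II genes of chromosome 17 lie between 34311314 and 34535648, from H2-Oa to H2-Eb1, and Cd74 and Ctss lie on chromosomes 18 and 3.

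Across the 12 libraries of the IFNγ experiment the genes most like Ciita, by Pearson correlation of log2(CPM + 1) among 12740 genes with a mean of at least 1 CPM, were Ifi213 (r = 0.996), Fcgr4 (0.994), Ptprr (0.994), Xdh (0.994) and Col28a1 (0.993). Those most like Cd74 were Apol10b (0.993), Ubd (0.992), Ifi213 (0.991), Col28a1 (0.990) and Ifi27l2b (0.987). Ubd was at 1.47 CPM in sgCtrL + IFNγ and 5.09 CPM in Sin3Bsg1 + IFNγ cells, and Apol10b at 3.13 and 7.997 CPM. Within the 6 IFNγ-treated libraries Stap2 (0.999) and Cert1 (0.998) were most like Ciita, and Vnn1 (0.999), Irak2 (0.998) and Msln (0.998) most like Cd74. Among the 9 genes themselves, Ciita had r = 0.987 with Cd74, 0.921 with H2-DMb1, 0.893 with H2-Ab1, 0.857 with H2-DMa, 0.790 with H2-Eb1 and 0.779 with H2-Aa over the 12 libraries. The libraries share their group structure, so these values describe the order of the 4 groups and carry no test.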

How the data were processed

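Total RNA of 16 cell line samples was sequenced by a company. The authors deposited estimated counts per gene with gene lengths. The submitters' processing notes name fastp, HISAT2, StringTie, DESeq2 and mm39, while the study's methods name HISAT2, mm9, featureCounts and DESeq2, and no versions are given. In the untreated experiment 324 assembled loci that name no gene (0.615 to 0.677% of counts) were left out. All columns of per-sample values were mapped.

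Counts were rounded to whole numbers and tested with edgeR 4.0.16 (quasi-likelihood, TMM, filterByExpr with a minimum count of 10) on all genes of each experiment, calling genes at a Benjamini-Hochberg adjusted p under 0.05. The 12 libraries of the IFNγ experiment shared 1 fit, which pools their spread, and the 4 untreated libraries had another, so levels were not tested across experiments. CPM were scaled by TMM, and TPM used the deposited lengths. Ratios of summed counts took exact Clopper-Pearson intervals at a level of 95%. Where the group without IFNγ had 0 counts, the bound given is the lower limit of that interval. For H2-Oa, a library at 0 was set to 3 counts. The fit was tested on simulated data for Sin3Bsg1 against sgCtrL with IFNγ over 14913 genes. It recovered 66.7% of 1.5-fold, 84.5% of 2-fold and 93.9% of 4-fold changes, and 5.20% of its calls were false. Simulated means were averages over all libraries, unlike class II genes near 0 without IFNγ, so these shares do not describe those genes. Alternatives were RLE factors, DESeq2 1.42.0, no filter, 10 counts in every library, a replicate block, only the 6 libraries compared, and leaving out each library.

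The 9 genes and the gene lists were chosen with earlier results of these data known. All 9 genes and Sin3b were to be named, with up to 4 genes per list: those that passed with the largest changes, otherwise the most abundant, and the 5 genes most like Ciita and Cd74. Promoter windows came from RefSeq (GRCm38.p6), and gene overlaps from GENCODE vM39 (GRCm39). Jak2, Nfya, Ctsb, Dexi, Brd2, Gm50336, Gm20513, Nfyb, Icosl, Pdgfra, Pdgfrb and the genes drawn in the plot of genotype differences were named after their values were seen. A gene in each of the lists of the IFNγ route and the immune markers is not reported here.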

Additional observations from a re-analysis of the deposited data

How the results depend on the processing

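The higher level of Ciita, Cd74, H2-Ab1, H2-DMa and H2-DMb1 in Sin3Bsg1 than in sgCtrL cells with IFNγ kept its direction and passed the test with RLE factors, DESeq2, no low-count filter, the replicate block, the 6 libraries alone and every single library left out. Requiring 10 counts in every library left 1 of the 9 genes testable, H2-DMa, so that 1 class II gene was called for IFNγ in sgCtrL cells, for IFNγ in Sin3Bsg1 cells and between genotypes with IFNγ. With the 6 sgCtrL libraries alone, IFNγ raised 3 class II genes in place of 5, without H2-DMa and H2-Ab1. Over all genes, the 6 libraries alone gave 1500 calls between genotypes with IFNγ (2463 with 12 libraries) and 3995 without it (2567), and the interaction had 17 calls, 32 with DESeq2, 115 without the filter and 1 to 33 with a library left out. With single libraries left out, the small genotype differences with IFNγ ranged from -0.090 to 0.098 for Rfx5 and from -0.038 to 0.17 for Nlrc5. Both turned without sgCtrL + IFNγ replicate 1 (-0.090 and -0.038), and Rfx5 also without Sin3Bsg1 + IFNγ replicate 1 (-0.038). The cause was not tested.

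The labels do not say whether libraries with the same replicate number were handled together. Deviations from the group mean correlated at -0.08 to 0.23 for same-numbered libraries, with 3 of 18 pairs above 0.1. For other pairs they correlated at -0.23 to 0.13, with 1 of 36 above 0.1. Between sgCtrL + IFNγ and Sin3Bsg1 + IFNγ libraries the values were 0.20 for replicate 1, 0.23 for replicate 2 and 0.003 for replicate 3. With the replicate block, calls were 4400 and 4207 for IFNγ in sgCtrL and Sin3Bsg1 cells, 2389 and 2511 between genotypes with and without IFNγ, 13 for the interaction and 4671 in the untreated experiment, and the class II calls were 5, 7, 7, 0, 0 and 0 in the same order. Depth limits the genes under about 10 counts per library: H2-Aa, H2-Eb1 and Ctss rest on 3, 3 and 17 counts in sgCtrL + IFNγ cells.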
